A study of Rattus norvegicus with 53 samples.

Results

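The 9 genes described here are Vegfa, Adm, Ankrd37, Egln3, Bnip3, Slc2a1, Hk2, Pgk1 and Ldha, all of which are known targets of the hypoxia-inducible factors (HIF) and several of which carry out glycolysis. They were taken by gene symbol, as every probe set annotated to one of them alone, which gave 12 of the 31042 probe sets tested. Vegfa had 2 probe sets, Pgk1 had 3, and the other genes had 1 each. Where a gene had several, the one with the highest mean over the 53 arrays stands for it and the others are given beside it.

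Each array measured peripheral blood mononuclear cells (PBMCs, the lymphocytes and monocytes of blood) of healthy male BN (Brown Norway) rats, cultured for 6 h in the plasma or serum of a donor rat. The sources call this material both plasma and serum, give its share as 20% for the autologous cultures, and give the age of the PBMC donors as 180 days in one place and as 150 to 200 days in another. The groups with serum of BB (BioBreeding) rats were d60 DRlyp/lyp serum with IL-1RA, the interleukin-1 receptor antagonist, added to the culture (4 arrays), d60 DRlyp/lyp serum (4 arrays), d60 DR+/+ serum (4 arrays), d40 serum of DRlyp/lyp rats given human IL-1RA (6 arrays) and d40 serum of DRlyp/lyp rats given PBS (6 arrays). DRlyp/lyp rats lack most T cells and go on to autoimmune diabetes, whereas DR+/+ rats stay free of both. Injections of the d40 rats began on day 30 and lasted 10 days, and the IL-1RA dose was 350 ug/kg/day. For that group the sample labels speak of serum with IL-1RA added and the study design of treated rats, and the design was followed. The groups with BN serum were autologous serum with interleukin-1B (IL-1B) added (4 arrays), allogeneic serum from other BN rats (15 arrays) and autologous serum (10 arrays), all labelled 180 days. All cells were thus of the BN strain and none came from a BB rat. BB and BN serum differed in strain and in labelled age together, and these cannot be told apart.

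The arrays form 2 sets that the labels do not describe, and groups are compared only within a set. Set 1 holds 21 arrays, namely all d40 serum, autologous replicates 1 to 6 and allogeneic replicates 1 to 3. Set 2 holds 32 arrays, namely all d60 serum, autologous serum with IL-1B, autologous replicates 7 to 10 and allogeneic replicates 4 to 15. Serum of d40 and d60 rats never shared a set, so donor age and set cannot be told apart. Array medians ran from 5.29 to 5.62 on the log2 scale. Whether replicates were separate animals or cultures is not said in the labels, so p-values measure only the spread between these samples, which may be technical. The number of arrays limits the precision. Actin signal was 3.58 ± 0.76 higher at the 3′ than at the 5′ probe sets in set 1 and 2.58 ± 0.40 in set 2 (log2, SD over arrays), a measure of RNA integrity, and within set 2 the mean was 2.32 with d60 DRlyp/lyp and 2.23 with d60 DR+/+ serum, against 2.78 with allogeneic serum. With that actin difference as a covariate, d60 DRlyp/lyp serum against allogeneic serum kept the 4 calls given below and gained Slc2a1 (0.35, adjusted p = 0.0368 in limma) and Adm (-0.42, adjusted p = 0.0255 in limma). With DR+/+ serum Ankrd37 and Adm kept their calls, Vegfa did not (0.56, adjusted p = 0.0536 in limma), and Slc2a1 was added (0.32, adjusted p = 0.0486 in limma). The T cell markers averaged 8.59 to 10.6 per array, 7 of 7 measured, and the monocyte markers 5.92 to 7.97, 8 of 8 measured, so markers of both main cell types of a PBMC culture were present. Erythroid markers were also bright, at 9.39 to 12.1 for 4 of 7 measured, and platelet markers at 8.47 to 11.1 for 6 of 7. In a mixture of cells, fewer cells of a type and less RNA per cell cannot be told apart.

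When oxygen is short, HIF-1α and HIF-2α escape the prolyl hydroxylases that mark them for destruction, pair with ARNT and switch on genes for blood vessel growth, glucose uptake and fermentation to lactate. In monocytes and macrophages the same factors also rise after inflammatory stimuli at normal oxygen, and glycolysis then supplies much of the cell's energy. HIF binds a short core element in DNA, ACGTG or GCGTG, read on either strand.

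The stretch of 250 bases before the RefSeq transcript start (build GRCr8) was searched for these letters on both strands. The start is that of the promoter table, which for Ankrd37 lies inside the gene as annotated, so that 20 bases of its stretch, with part of the CACGTG, fall in the gene. The stretch of Adm and the second one of Vegfa lie inside their genes altogether. They were found in 36.7% of the 33469 such stretches of the rat genome table and in 4 of the 8 members that the table holds, Ankrd37, Slc2a1, Bnip3 and Ldha, with 4 matches each. Stretches with 4 or more matches made up 2.44% of the table. Matches on the same strand and the opposite strand overlap where the letters CACGTG occur, and each such place counts as 2 matches. CACGTG was present in 5.59% of all stretches and in those of Ankrd37, Bnip3 and Ldha. Vegfa, which has 2 annotated starts, Adm, Egln3 and Hk2 had 0 matches. That says only that these letters are not in this window. The stretches of Ankrd37 (chr16:53001257-53001506, plus strand), Ldha (chr1:106507842-106508091, plus strand) and Vegfa at its first start (chr9:22452604-22452853, plus strand) are shown because the results on the members turn mainly on these 3 genes. Capitals mark every match.
Ankrd37: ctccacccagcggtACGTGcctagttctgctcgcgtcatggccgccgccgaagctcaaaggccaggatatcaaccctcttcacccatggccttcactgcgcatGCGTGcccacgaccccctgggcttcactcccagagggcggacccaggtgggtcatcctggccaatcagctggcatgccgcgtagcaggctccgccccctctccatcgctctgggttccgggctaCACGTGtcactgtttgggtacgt
Ldha: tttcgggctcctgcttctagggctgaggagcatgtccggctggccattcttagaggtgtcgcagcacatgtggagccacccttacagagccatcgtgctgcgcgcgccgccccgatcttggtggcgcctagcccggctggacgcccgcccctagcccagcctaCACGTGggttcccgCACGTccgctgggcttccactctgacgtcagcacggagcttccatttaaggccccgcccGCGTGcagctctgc
Vegfa: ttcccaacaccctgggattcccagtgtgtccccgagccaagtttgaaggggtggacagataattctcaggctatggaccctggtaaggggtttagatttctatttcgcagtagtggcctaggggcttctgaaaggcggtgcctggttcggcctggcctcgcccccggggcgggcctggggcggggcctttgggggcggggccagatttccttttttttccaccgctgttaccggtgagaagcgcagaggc

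Vegfa and Ankrd37 were the members that rose with the d60 serum of both BB lines, and they did so against allogeneic BN serum. Against that group, d60 DRlyp/lyp serum gave 4 of 9 members higher (Ankrd37, Vegfa, Ldha and Pgk1) and 0 lower at an adjusted p under 0.05 in limma, where 12.1% of all probe sets were called higher, 9.38% lower and 21.5% in either direction. With d60 DR+/+ serum, 2 of 9 were higher (Vegfa and Ankrd37) and 1 lower (Adm), against 13.3% of all probe sets higher, 12.2% lower and 25.5% in either direction. At an unadjusted p under 0.05 in limma, DRlyp/lyp serum had 5 of 9 members, with Adm added, against 37.7% of all probe sets. DR+/+ serum had 3 of 9 at that unadjusted p, the same genes as above, against 40.1% of all probe sets. At both thresholds its 3 of 9 is close to the share of the whole array. The median difference of the 9 members was 0.26 on the log2 scale for DRlyp/lyp serum and -0.08 for DR+/+ serum, and over all 14217 genes it was 0.05 and 0.03. The 2 comparisons share the same 12 allogeneic arrays.

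**Figure D1:**
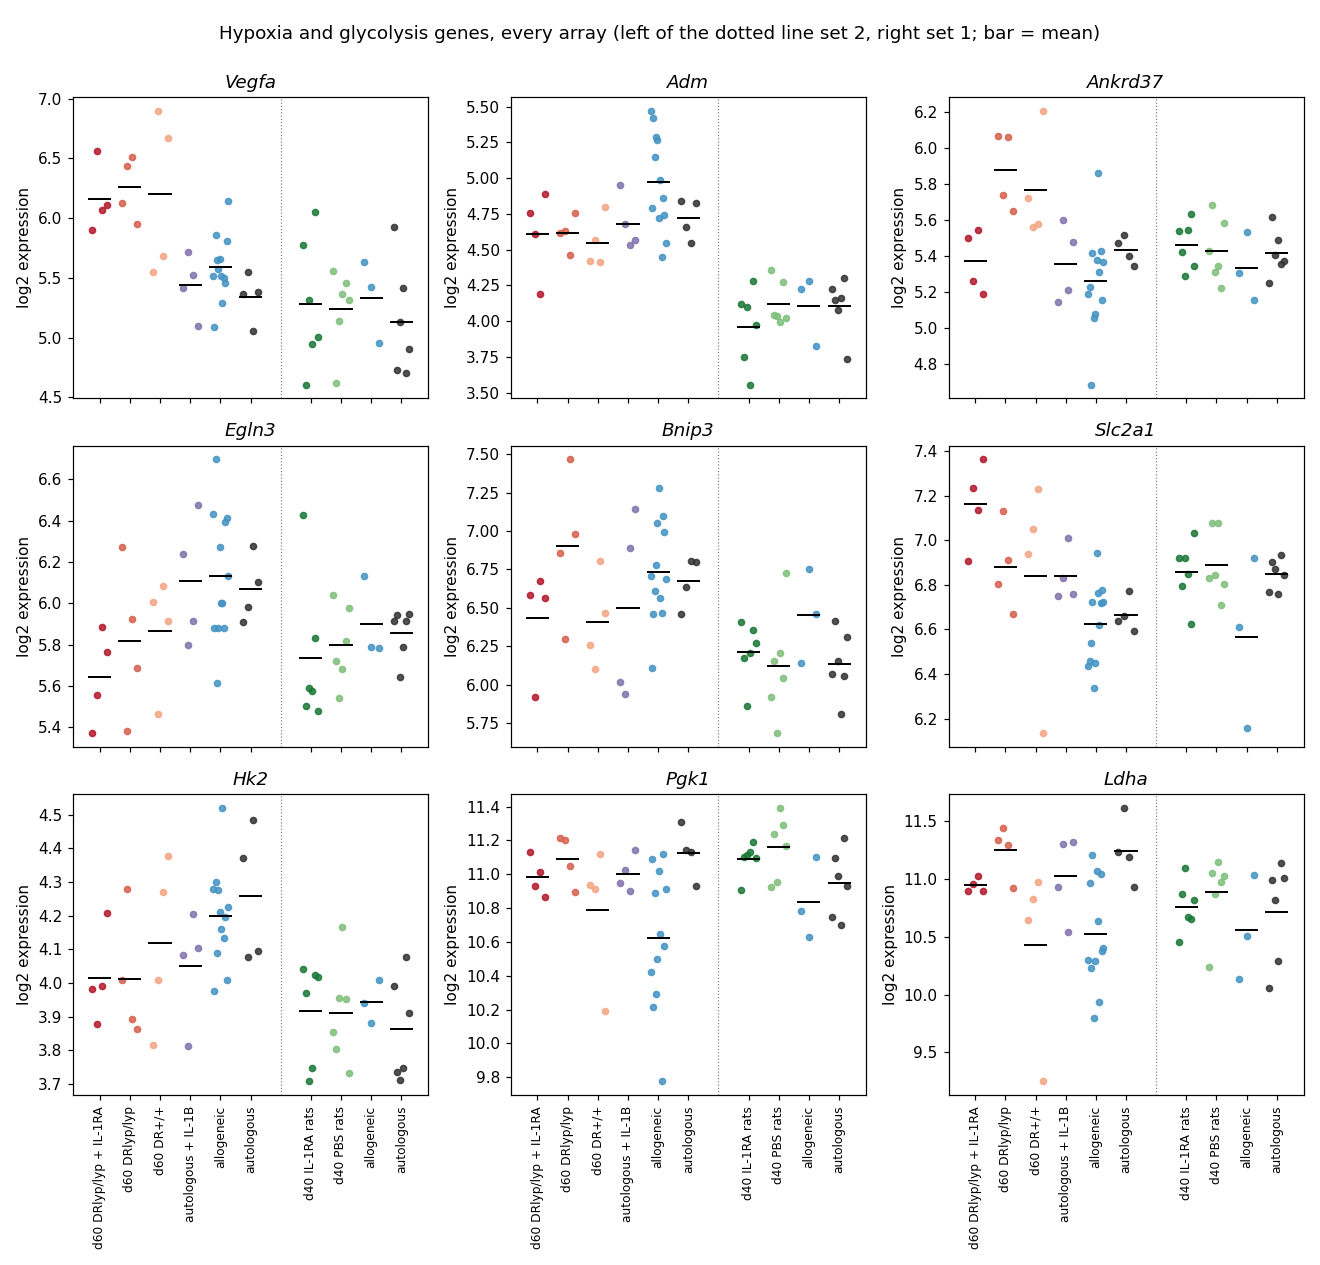
Log2 expression of the main probe set of each gene on every array (vertical axis), by group (horizontal axis), with set 2 left of the dotted line and set 1 right of it; bars are group means. Vegfa stood higher in the 3 groups with d60 BB serum than in the other groups of set 2, Ankrd37 in d60 DRlyp/lyp and DR+/+ serum without IL-1RA, and Ldha and Pgk1 were spread widely in allogeneic serum.

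In the other 12 comparisons 0 of 9 members were called by limma. Against autologous serum in set 2, 0.0354% of all probe sets were called for d60 DRlyp/lyp serum, 1.35% for d60 DR+/+ serum, 0.0548% for d60 DRlyp/lyp serum with IL-1RA, 0% for IL-1B and 0.00966% for allogeneic serum. In the higher direction these shares were 0.0322% for DRlyp/lyp serum, 0.97% for DR+/+ serum and 0.0515% with IL-1RA. Unadjusted p-values under 0.05 were reached there by 3 members with DRlyp/lyp serum (Vegfa, Ankrd37, Hk2), 3 with DR+/+ serum (Vegfa, Ankrd37, Ldha), 4 with DRlyp/lyp serum and IL-1RA (Vegfa, Slc2a1, Hk2, Egln3), 0 with IL-1B and 2 with allogeneic serum (Ldha, Pgk1). The share of all probe sets at that unadjusted p was 5.98% with DRlyp/lyp serum, 15.8% with DR+/+ serum, 9.46% with IL-1RA added, 3.61% with IL-1B and 17.6% with allogeneic serum. Between d60 DRlyp/lyp and DR+/+ serum 0% of all probe sets were called, with 2 members at an unadjusted p under 0.05 (Ldha and Bnip3) and 1864 of the 31042 probe sets. IL-1RA in d60 DRlyp/lyp serum against that serum alone also gave 0%, with 1 member at an unadjusted p under 0.05 (Ankrd37) and 3.08% of all probe sets. In set 1 the share was 0.00322% for d40 serum of IL-1RA rats against PBS rats, 0% for each of them against autologous serum and 1.07% for allogeneic against autologous serum (0.954% in the lower direction), and 0 members had an unadjusted p under 0.05 in any of these. The difference of the allogeneic effect between the sets gave 0.696% of all probe sets (0.0838% in the lower direction), and 0 members at either threshold.

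Vegfa encodes the vascular endothelial growth factor A, a secreted signal for vessel growth and vascular leak that also attracts monocytes. Its gene lies at chr9:22452854-22468194 (GRCr8). The Vegfa values were 5.90, 6.56, 6.07 and 6.11 (log2) with d60 DRlyp/lyp serum and IL-1RA, 6.13, 6.44, 6.51 and 5.95 with d60 DRlyp/lyp serum, and 5.55, 6.90, 5.69 and 6.67 with d60 DR+/+ serum. With BN serum of set 2 they were 5.42, 5.71, 5.53 and 5.10 with IL-1B, 5.09 to 6.14 with a median of 5.55 in allogeneic serum, and 5.36, 5.55, 5.06 and 5.38 in autologous serum. All arrays with DRlyp/lyp serum, with or without IL-1RA, stood above all 4 autologous arrays, while the DR+/+ arrays split into 2 near the autologous level and 2 well above it. In order of means the groups ran from DRlyp/lyp (6.26), DR+/+ (6.199) and DRlyp/lyp with IL-1RA (6.16), which differed from each other by less than their SDs of 0.26 to 0.68, to allogeneic (5.59), IL-1B (5.44) and autologous serum (5.34), of which neighbours again differed by less than their SDs of 0.20 to 0.27.

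Vegfa was 0.67 ± 0.21 higher (log2 difference ± SE, 1.59-fold) with d60 DRlyp/lyp serum than with allogeneic serum, with an adjusted p of 0.0227 in limma. With DR+/+ serum it was 0.61 ± 0.21 higher (1.53-fold), with an adjusted p of 0.0316 in limma. The SE is pooled over all groups, while the SD of the arrays was 0.68 with DR+/+ and 0.26 with DRlyp/lyp serum. The second Vegfa probe set gave 0.47 (adjusted p = 0.0224 in limma) and 0.46 (adjusted p = 0.0227 in limma) for the same comparisons. The DR+/+ call rests on its 2 high arrays. Without DR+/+ replicate 2 or 4 it was lost, the difference fell as low as 0.38 and the adjusted p in limma reached 0.221, and array weights gave 0.33 with an adjusted p of 0.205. The DRlyp/lyp call was lost without replicate 1, 2 or 3 of that group, with an adjusted p of up to 0.109 in limma, at differences that stayed between 0.58 and 0.77 over all single arrays left out.

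Against autologous serum of set 2 the Vegfa difference was larger and did not pass. It was 0.92 ± 0.26 with d60 DRlyp/lyp serum (95% interval 0.39 to 1.45, adjusted p = 0.511 in limma), 0.86 ± 0.26 with DR+/+ serum (0.34 to 1.39, adjusted p = 0.0780 in limma) and 0.82 ± 0.26 with DRlyp/lyp serum plus IL-1RA (0.30 to 1.35, adjusted p = 0.322 in limma). The second probe set showed differences of 0.15 to 0.20 in these 3 comparisons. IL-1B gave 0.10 (interval -0.42 to 0.63), and IL-1RA in DRlyp/lyp serum moved Vegfa by -0.10 against that serum alone (-0.62 to 0.43). These intervals are wide, so that equal levels are not shown. The groups did not overlap for Vegfa with DRlyp/lyp serum and with DRlyp/lyp serum plus IL-1RA against autologous serum. Of all probe sets, 0.857% stood apart upward with DRlyp/lyp serum (2.52% in either direction), and 2.52% upward with IL-1RA added (5.61% in either direction).

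Monocyte markers moved with Vegfa. The mean of the 8 markers ran from 7.47 to 7.65 per array with DRlyp/lyp serum and from 7.51 to 7.92 with DR+/+ serum, against 6.24 to 7.97 with allogeneic and 6.69 to 7.27 with autologous serum of set 2. Their median difference from allogeneic serum was 0.68 with DRlyp/lyp and 0.74 with DR+/+ serum. In both comparisons 4 of the 8 passed, all higher, namely Cd14, Csf1r, Cd68 and Mpeg1, with Cd14 up by 1.97 and 1.93 and Mpeg1 by 1.56 and 2.23. Of all probe sets, 12.1% were called higher and 9.38% lower there with DRlyp/lyp serum, and 13.3% and 12.2% with DR+/+ serum. Against autologous serum 0 of 8 passed with DRlyp/lyp serum and 2 of 8 with DR+/+ serum (Cd14 and Mpeg1). The share of all probe sets called higher there was 0.0322% and 0.97%. The allogeneic array with the highest marker mean, replicate 15 at 7.97, also had the highest Vegfa value of its group, 6.14. Across arrays Vegfa and the marker mean had a correlation of 0.71 in set 2 (32 arrays) and 0.65 in set 1 (21 arrays). Inside the groups, after group means were taken off, it was 0.35 in set 2 and 0.67 in set 1. For Ldha, Pgk1 and Adm the correlation across arrays was 0.25, 0.41 and -0.50 in set 2, and -0.62, -0.40 and 0.37 in set 1. Inside the groups it was 0.38, 0.47 and -0.24 in set 2, and -0.70, -0.60 and 0.41 in set 1. Markers of other cells also differed from allogeneic serum. T cell markers had median differences of 0.52 with DRlyp/lyp serum (0 of 7 passed) and 0.47 with DR+/+ serum (2 of 7, both higher). Of 3 B cell markers measured 1 was higher in each, and of 5 NK cell markers 1 was higher in each and 1 lower with DR+/+ serum. Platelet markers had medians of -0.31 with DRlyp/lyp serum (1 of 6 lower) and -0.79 with DR+/+ serum (2 of 6 lower). The part of these cells in the differences of the members was not tested.

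In set 1 the main Vegfa probe set differed more between replicate numbers than between sera. The second Vegfa probe set spread less there, from 4.89 to 5.09 with d40 IL-1RA rats and from 4.59 to 5.12 in autologous serum. Its correlation with the main one was 0.03 in set 1, against 0.58 in set 2. The values that follow are those of the main probe set. Replicate 1 had 5.78 with serum of d40 IL-1RA rats, 5.56 with d40 PBS rats, 5.63 with allogeneic and 5.92 with autologous serum. Replicate 2 had 4.60, 4.62, 5.42 and 4.73 in the same order of groups. Replicate 1 thus held the highest Vegfa value in all groups but d40 IL-1RA rats, where replicate 5 had 6.05. The monocyte markers were at their highest in replicate 1 of all 4 groups. The d40 groups did not differ from each other or from autologous serum beyond this spread, with Vegfa differences of 0.04 (d40 IL-1RA against d40 PBS rats), 0.11 (d40 PBS against autologous) and 0.15 (d40 IL-1RA against autologous).

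**Figure D2:**
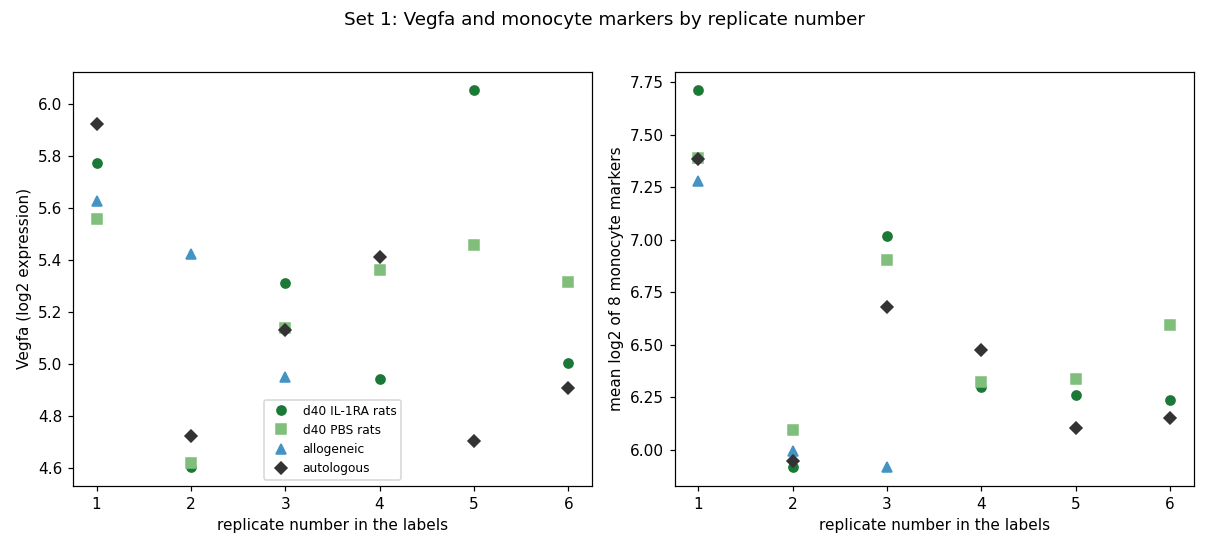
Set 1 only: the main Vegfa probe set (left, log2 expression) and the mean of 8 monocyte markers (right, log2), for the 4 groups. The horizontal axis is the replicate number in the labels, which has no order. Arrays with the number 1 had marker means of 7.28 to 7.71 and Vegfa values of 5.56 to 5.92, and the arrays with the number 2, other than the allogeneic one at 5.42, had Vegfa values of 4.60 to 4.73.

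Adm encodes adrenomedullin, a secreted vasodilator peptide that HIF induces and that macrophages release after stimulation. It was weakly expressed, at the 31.8th percentile of the probe sets' means. In set 2 it averaged 4.61 ± 0.30 with DRlyp/lyp serum plus IL-1RA, 4.62 ± 0.12 with DRlyp/lyp serum, 4.55 ± 0.18 with DR+/+ serum and 4.68 ± 0.19 with IL-1B (SD, n = 4 each), against 4.97 ± 0.34 with allogeneic serum (n = 12) and 4.72 ± 0.14 with autologous serum (n = 4). The allogeneic group had the highest mean and reached 5.47. With d60 serum against allogeneic serum Adm thus ran the other way from Vegfa. Against autologous serum, allogeneic serum gave 0.26 for Adm and 0.25 for the main Vegfa probe set, and neither passed. The second Vegfa probe set gave -0.28 there and did not pass either, so the direction shared with Adm held for the main one only. Over arrays the correlation of Adm with Vegfa was -0.21 in set 2 and 0.54 in set 1, and 0.11 and 0.61 after group means were taken off. It fell with DR+/+ serum against allogeneic serum, by 0.42 ± 0.14 (adjusted p = 0.0238 in limma), with values of 4.42, 4.57, 4.41 and 4.80 against 4.45 to 5.47. With DRlyp/lyp serum the difference was -0.36 ± 0.14 (adjusted p = 0.0577 in limma). Without DR+/+ replicate 1 or 3 the DR+/+ call was lost (adjusted p up to 0.0979 in limma), at differences between -0.51 and -0.38 over all single arrays left out. After a second quantile normalization the DR+/+ difference was -0.30 (adjusted p = 0.0868 in limma). In set 1 Adm was lower than in set 2 in every group, with means of 3.96 to 4.12.

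Ankrd37 encodes a small ankyrin-repeat protein and is a direct target of HIF-1. Its gene lies at chr16:53001487-53004545. The Ankrd37 values were 6.07, 5.74, 6.06 and 5.65 with d60 DRlyp/lyp serum and 5.72, 5.56, 5.58 and 6.21 with DR+/+ serum, against 4.68 to 5.86 with a median of 5.27 in allogeneic serum and 5.47, 5.52, 5.40 and 5.35 in autologous serum. With IL-1RA in DRlyp/lyp serum they were 5.50, 5.26, 5.55 and 5.19. Every array of the 2 d60 groups without IL-1RA stood above every autologous array, whereas the arrays with IL-1RA lay among the BN arrays. Ankrd37 rose by 0.62 ± 0.13 (1.53-fold, adjusted p = 0.00176 in limma) with DRlyp/lyp serum and by 0.50 ± 0.13 (1.42-fold, adjusted p = 0.00411 in limma) with DR+/+ serum against allogeneic serum. Both calls held in all 16 fits that left out 1 array. With only the groups compared in the model, the DR+/+ difference stayed at 0.50 with an adjusted p of 0.0553 in limma.

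Against autologous serum Ankrd37 was 0.44 ± 0.16 higher with DRlyp/lyp serum (adjusted p = 0.638 in limma) and 0.33 ± 0.16 higher with DR+/+ serum (adjusted p = 0.282 in limma), without overlap in either. Non-overlap with autologous serum held for 5.84% of all probe sets with DR+/+ serum, 2.54% upward and 3.29% downward. With IL-1RA the difference from autologous serum was -0.06 (95% interval -0.37 to 0.25). The difference between DRlyp/lyp serum with IL-1RA and without it was -0.50 ± 0.16, again without overlap, where 1.35% of all probe sets stood apart downward. It did not pass over all probe sets (adjusted p = 0.99987 in limma). IL-1B added to autologous serum gave -0.08 for Ankrd37 (-0.39 to 0.23). Over the 32 arrays of set 2 Ankrd37 had a correlation of 0.60 with the mean of the monocyte markers, and of 0.35 after group means were taken off. In set 1 these were -0.18 and -0.22, so the sign differed between the sets. The part of monocytes was not tested. In set 1 the group means of Ankrd37 lay close together, at 5.33 to 5.46.

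Egln3 encodes PHD3, a prolyl hydroxylase that marks HIF for destruction and is itself a HIF target. It averaged 5.64 ± 0.23 with DRlyp/lyp serum plus IL-1RA, 5.82 ± 0.38 with DRlyp/lyp serum and 5.87 ± 0.28 with DR+/+ serum (SD, n = 4 each), against 6.13 ± 0.31 with allogeneic serum (n = 12) and 6.07 ± 0.16 with autologous serum (n = 4). All 3 d60 groups had lower means than the BN groups, and only the one with IL-1RA stood below all 4 autologous arrays. Its values there were 5.37, 5.55, 5.89 and 5.76, against 5.91, 5.98, 6.28 and 6.10 in autologous serum, a difference of -0.42 ± 0.19 (adjusted p = 0.487 in limma). Downward non-overlap held for 3.1% of all probe sets in that comparison. Against allogeneic serum, a comparison added after the values were seen, DRlyp/lyp serum plus IL-1RA gave -0.49 ± 0.16 for Egln3 (adjusted p = 0.0293 in limma), where 8.56% of all probe sets were called lower and 18.1% in either direction. In that comparison 2 of 9 members passed, Egln3 and Slc2a1, while Vegfa was 0.57 (adjusted p = 0.0531 in limma) and Ankrd37 0.11 (adjusted p = 0.528 in limma). Over the 32 arrays of set 2 the correlation with the monocyte marker mean was -0.48 for Egln3 and 0.53 for Slc2a1. After group means were taken off it was -0.15 and 0.30. In set 1 it was 0.51 for Egln3 and 0.02 for Slc2a1, and 0.57 and -0.06 after group means were taken off. The sign for Egln3 thus differed between the sets, and the part of monocytes was not tested.

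Bnip3, a mitochondrial protein that promotes removal of mitochondria, had means of 6.44 ± 0.35 with DRlyp/lyp serum plus IL-1RA, 6.90 ± 0.48 with DRlyp/lyp serum and 6.41 ± 0.30 with DR+/+ serum (SD, n = 4 each), against 6.73 ± 0.33 with allogeneic serum (n = 12) and 6.68 ± 0.16 with autologous serum (n = 4). It did not pass in any comparison. DRlyp/lyp serum ran 0.49 ± 0.24 above DR+/+ serum (adjusted p = 0.807 in limma), and IL-1RA in DRlyp/lyp serum gave -0.46 ± 0.24 (adjusted p = 0.99987 in limma), with overlap in both. The IL-1B arrays were split, at 6.01, 5.94, 6.89 and 7.14.

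Slc2a1 encodes the glucose transporter GLUT1, which brings glucose into most blood cells. The Slc2a1 values were 6.91, 7.24, 7.14 and 7.36 with DRlyp/lyp serum plus IL-1RA, 6.80, 7.13, 6.91 and 6.67 with DRlyp/lyp serum and 6.94, 7.05, 7.23 and 6.13 with DR+/+ serum, against 6.34 to 6.94 with a median of 6.67 in allogeneic serum and 6.64, 6.66, 6.77 and 6.59 in autologous serum. The IL-1RA group was highest and stood above all autologous arrays. It was 0.50 ± 0.16 above autologous serum (adjusted p = 0.326 in limma) and, in the added comparison, 0.54 ± 0.13 above allogeneic serum (adjusted p = 0.00814 in limma), where 9.51% of all probe sets were called higher. The difference to DRlyp/lyp serum alone was 0.28 ± 0.16 (95% interval -0.04 to 0.60). One DR+/+ array, replicate 4, was the lowest of set 2, and without it the DR+/+ difference from allogeneic serum was 0.45 (adjusted p = 0.00693 in limma), where all 4 arrays gave 0.22 (adjusted p = 0.207 in limma).

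Hk2, the inducible hexokinase that phosphorylates glucose, was near the low end, at the 22.1th percentile of the probe sets' means. In set 2 its group means lay between 4.01 and 4.26, the highest in autologous serum. Differences from autologous serum were -0.24 with DRlyp/lyp serum plus IL-1RA, -0.25 with DRlyp/lyp serum, -0.14 with DR+/+ serum and -0.21 with IL-1B, and none passed. RMA compresses differences at this level.

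Ldha encodes the lactate dehydrogenase A chain, which turns pyruvate into lactate, and Pgk1 encodes phosphoglycerate kinase, which makes ATP in glycolysis. Both were among the brightest probe sets, at the 98.2th and 98.4th percentile of the means. The Ldha values were 11.34, 11.44, 11.30 and 10.92 with DRlyp/lyp serum and 10.65, 10.83, 10.98 and 9.25 with DR+/+ serum, against 9.80 to 11.21 with a median of 10.39 in allogeneic serum and 11.24, 11.62, 11.19 and 10.93 in autologous serum. DRlyp/lyp and autologous serum thus had the same mean of 11.25, with a difference of 0.00 (95% interval -0.57 to 0.57), while the allogeneic arrays reached from within their range to far below it and 3 of the 4 DR+/+ arrays lay below it. The Pgk1 values were 11.21, 11.20, 11.05 and 10.89 with DRlyp/lyp serum, against 9.78 to 11.12 in allogeneic serum and 11.31, 11.14, 11.13 and 10.93 in autologous serum.

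Against allogeneic serum, DRlyp/lyp serum was 0.73 ± 0.23 higher for Ldha (1.66-fold, adjusted p = 0.0223 in limma) and 0.47 ± 0.16 higher for Pgk1 (1.38-fold, adjusted p = 0.0340 in limma). The second Pgk1 probe set gave 0.35 (adjusted p = 0.208 in limma). The third lies at the 0.454th percentile of the means and gave -0.07. It fell by 0.20 with DR+/+ serum (adjusted p = 0.00933 in limma), where the main Pgk1 probe set gave 0.17. Left out singly, replicates 1, 2 and 3 of DRlyp/lyp serum each ended both calls, with adjusted p of up to 0.0881 for Ldha and 0.130 for Pgk1 in limma, and allogeneic replicates 6 and 12 ended that of Pgk1. Over all single arrays left out, the difference stayed between 0.66 and 0.84 for Ldha and between 0.39 and 0.53 for Pgk1. The number of all probe sets called ran from 1530 to 9184 over the same fits.

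The upper end of the arrays moved with both genes. The 98th percentile of an array averaged 10.79 with DRlyp/lyp serum, 10.79 with DR+/+ serum and 10.76 with DRlyp/lyp serum plus IL-1RA, against 10.38 with allogeneic serum (9.84 to 10.78) and 10.71 with autologous serum of set 2. Over the 32 arrays of set 2 its correlation was 0.66 with Ldha and 0.86 with Pgk1, and both genes are themselves near that percentile. When the deposited values were quantile normalized a second time, which gives every array the same upper end, the DRlyp/lyp difference from allogeneic serum became 0.32 for Ldha (adjusted p = 0.227 in limma) and 0.06 for Pgk1 (adjusted p = 0.731 in limma), and neither passed. The same step left Vegfa at 0.76 (adjusted p = 0.0160 in limma) and Ankrd37 at 0.73 (adjusted p = 0.00105 in limma), both still higher. It also made Ldha with DR+/+ serum -0.50 against allogeneic serum (adjusted p = 0.0469 in limma), where it was -0.10 before (adjusted p = 0.774 in limma).

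**Figure D3:**
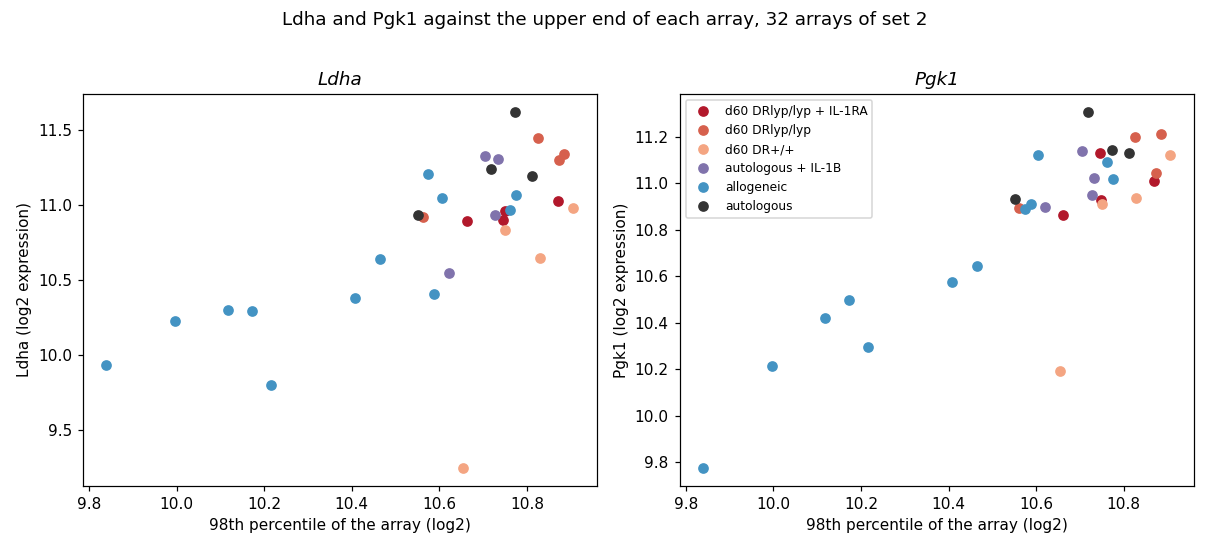
Ldha (left) and Pgk1 (right) on the vertical axis, in log2 expression, against the 98th percentile of all probe sets on the same array (horizontal axis, log2) for the 32 arrays of set 2, coloured by group. Only allogeneic arrays had a 98th percentile under 10.5, and their Ldha and Pgk1 values fell with it; 1 DR+/+ array had low Ldha (9.25) without it.

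Ldha and Pgk1 moved together over arrays, with a correlation of 0.87 in set 2 and 0.78 in set 1, and of 0.84 and 0.78 after group means were taken off. Against autologous serum of set 2, allogeneic serum gave -0.72 ± 0.23 for Ldha (adjusted p = 0.116 in limma) and -0.51 ± 0.16 for Pgk1 (adjusted p = 0.116 in limma). DR+/+ serum gave -0.82 ± 0.28 for Ldha (adjusted p = 0.128 in limma). DRlyp/lyp serum ran 0.82 ± 0.28 above DR+/+ serum for Ldha (adjusted p = 0.669 in limma), and 0.43 without DR+/+ replicate 4. In set 1 the allogeneic difference was -0.16 for Ldha and -0.11 for Pgk1, and the sets did not differ in it by a test of the difference (-0.57 ± 0.37 for Ldha, adjusted p = 0.574 in limma).

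**Figure D4:**
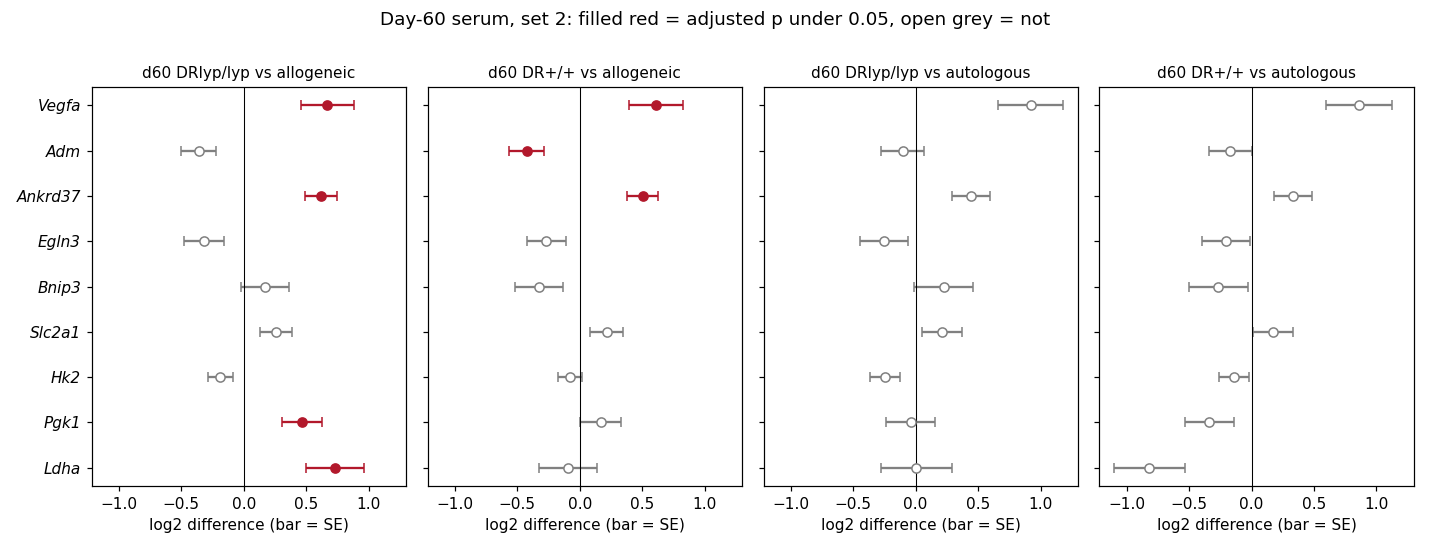
Log2 difference of each member (horizontal axis, bars are SE) for d60 DRlyp/lyp and d60 DR+/+ serum against allogeneic serum (left panels) and against autologous serum (right panels), all in set 2. Filled red points passed an adjusted p of 0.05, 4 for DRlyp/lyp and 3 for DR+/+ serum against allogeneic serum; Vegfa lay above 0.6 in all 4 panels and passed in 2.

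The d40 sera of set 1 gave small differences in every member. Over the 3 comparisons among d40 IL-1RA rats, d40 PBS rats and autologous serum, the 27 member differences lay between -0.16 and 0.21, and their 95% intervals between -0.59 and 0.63. The fit did not pair replicate numbers, so these intervals also hold the spread between numbers. Residuals of the same number had a mean r of 0.55 between d40 IL-1RA and d40 PBS rats. Between d40 IL-1RA rats and autologous serum it was 0.39. The Vegfa differences of d60 serum from autologous serum (0.82 to 0.92) lie outside these intervals. Their own 95% intervals begin at 0.39 with DRlyp/lyp serum, 0.34 with DR+/+ serum and 0.30 with DRlyp/lyp serum plus IL-1RA, and overlap them. Donor age, array set and the injections of the d40 rats cannot be told apart here. The difference between the d60 and the d40 effect of DRlyp/lyp serum, each against its own autologous arrays, was added after the values were seen. It was 0.81 ± 0.34 for Vegfa (adjusted p = 0.948 in limma) and 0.43 ± 0.20 for Ankrd37 (adjusted p = 0.948 in limma), and 0 of all probe sets passed in it. With serum of d40 IL-1RA rats against d40 PBS rats, the largest of the 9 differences was -0.16 (Adm).

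The oxygen sensors and HIF subunits, which act above these genes, were measured for 9 of 10 listed. Egln1, the main prolyl hydroxylase and a HIF target, rose against allogeneic serum with DRlyp/lyp (0.64 ± 0.19, adjusted p = 0.0163 in limma) and DR+/+ serum (0.74 ± 0.19, adjusted p = 0.00546 in limma). Hif3a fell with DR+/+ serum by 0.29 (adjusted p = 0.0201 in limma), at a low level of 3.45 against 3.75. The others did not pass, and the list's median difference was 0.00 and 0.04. Of all probe sets, 21.5% passed in either direction with DRlyp/lyp serum and 25.5% with DR+/+ serum. Hif1a itself was bright and did not pass, with a mean of 10.97 with DRlyp/lyp and 10.66 with DR+/+ serum against 10.51 with allogeneic serum. The 98th percentile of the arrays averaged 10.79 in both d60 groups against 10.38 with allogeneic serum. Its part in the Hif1a means was not tested.

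Of 12 enzymes measured of 15 listed beside the members, 1 was higher with DRlyp/lyp serum against allogeneic serum, and 1 was higher and 2 lower with DR+/+ serum, where 21.5% and 25.5% of all probe sets passed in either direction. Pgam1, the phosphoglycerate mutase that follows Pgk1, rose in both, by 0.67 ± 0.16 (adjusted p = 0.00432 in limma) and 0.70 ± 0.16 (adjusted p = 0.00171 in limma). Tpi1, the triosephosphate isomerase, and Aldoc, an aldolase, fell with DR+/+ serum, by 0.71 ± 0.17 (adjusted p = 0.00341 in limma) and by 0.59 ± 0.12 (adjusted p = 0.000891 in limma). Tpi1 also fell with DR+/+ serum against autologous serum, by 0.82 ± 0.21 (adjusted p = 0.0361 in limma). The enzymes' median difference was 0.21 with DRlyp/lyp and 0.07 with DR+/+ serum.

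Of 10 transporters and regulators measured of 11 listed, Pdk1 rose with DRlyp/lyp serum by 1.12 ± 0.35 (adjusted p = 0.0195 in limma). Pdk1 is a HIF target and a kinase that inhibits pyruvate dehydrogenase, the enzyme that turns pyruvate into acetyl-CoA. With DR+/+ serum Pfkfb3, which makes the strongest activator of phosphofructokinase, rose by 1.06 ± 0.23 (adjusted p = 0.00148 in limma), and Pfkfb1 fell by 0.38 ± 0.13 (adjusted p = 0.0244 in limma). All are against allogeneic serum, where 21.5% of all probe sets passed in either direction with DRlyp/lyp serum and 25.5% with DR+/+ serum. Pdk1 with DR+/+ serum (0.53) and Pfkfb3 with DRlyp/lyp serum (0.51) ran the same way and did not pass.

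**Figure D5:**
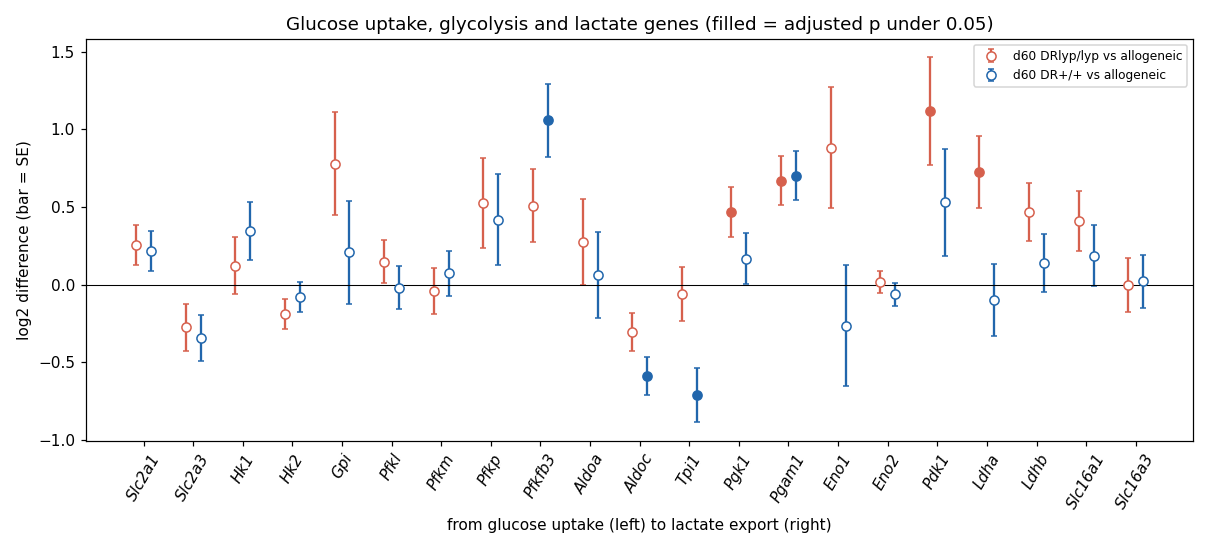
Log2 difference against allogeneic serum (vertical axis, bars are SE) of genes from glucose uptake to lactate export (horizontal axis), for d60 DRlyp/lyp (red) and d60 DR+/+ serum (blue). Filled points passed an adjusted p of 0.05: Pgk1, Pgam1, Pdk1 and Ldha for DRlyp/lyp serum, and Pfkfb3, Aldoc, Tpi1 and Pgam1 for DR+/+ serum.

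Of 15 other HIF targets measured of 16 listed, 4 rose and 0 fell with DRlyp/lyp serum, and 3 rose and 2 fell with DR+/+ serum, against allogeneic serum. Of all probe sets, 12.1% were called higher and 9.38% lower there with DRlyp/lyp serum, and 13.3% and 12.2% with DR+/+ serum. The haem oxygenase Hmox1 had the largest rise, 1.15 ± 0.21 (adjusted p = 0.000860 in limma) and 0.97 ± 0.21 (adjusted p = 0.00118 in limma), and it is also a target of the redox factor NRF2. The histone demethylase Kdm3a rose by 0.93 ± 0.22 (adjusted p = 0.00419 in limma) and 0.71 ± 0.22 (adjusted p = 0.0168 in limma), and the mitochondrial protein Higd1a by 0.56 and 0.50. Tfrc, the transferrin receptor, rose by 0.65 with DRlyp/lyp serum. Car9, a carbonic anhydrase, fell by 0.41 with DR+/+ serum. Against autologous serum only Hmox1 of this list passed, with 1.32 ± 0.26 for DRlyp/lyp serum (adjusted p = 0.0263 in limma) and 1.13 ± 0.26 for DR+/+ serum (adjusted p = 0.0158 in limma). Of all probe sets, 0.0322% and 0.97% were called higher in these comparisons. The list's median was 0.04 and 0.05 against allogeneic serum.

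The relatives and receptors of VEGF and adrenomedullin were measured for 13 of 13 genes. Nrp2, a neuropilin that serves as a VEGF coreceptor, rose against allogeneic serum by 0.89 ± 0.19 with DRlyp/lyp serum (adjusted p = 0.00210 in limma) and by 1.27 ± 0.19 with DR+/+ serum (adjusted p = 2.0e-05 in limma). Vegfd fell in both, by 0.43 and 0.52. With DR+/+ serum 4 more fell, among them Vegfb by 0.43 and Ramp3, a partner of the adrenomedullin receptor, by 0.79. Of all probe sets, 12.1% were called higher and 9.38% lower with DRlyp/lyp serum, and 13.3% and 12.2% with DR+/+ serum. Against autologous serum DR+/+ serum gave Nrp2 1.28 ± 0.23 higher (adjusted p = 0.00163 in limma) and Ramp3 1.28 ± 0.31 lower. There 1.35% of all probe sets passed in either direction. Ligand and receptor genes of this family moved in both directions.

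The genes whose pattern over the 32 arrays of set 2 was most like that of a member differed from member to member. For Vegfa they were Ccl2 (r = 0.79), a monocyte chemokine, Slamf9 (0.78) and the quinone reductase Nqo1 (0.78), which in set 1 had r of 0.54, 0.53 and 0.68. For Ankrd37 they were Rpain, Med31 and Calhm6 (0.84, 0.83 and 0.83), with 0.13 to 0.26 in set 1. For Ldha they were Ssr4, Hsd17b10 and Fis1 (0.93 each), with 0.69, 0.80 and -0.15 in set 1. For Pgk1 they were Slc25a5, Mff and Ctss (0.93, 0.92 and 0.92), with 0.72, -0.28 and 0.40 in set 1. Slc2a1 was most like Septin9, Piezo1 and Tyw1 (0.79, 0.79 and 0.78), with 0.70, 0.73 and 0.65 in set 1. Egln3 was most like the glucose transporter Slc2a3 (0.76), which in set 1 had -0.25. Adm was most like Aif1, Zfp658l1 and Plxna3 (0.85, 0.84 and 0.83), with 0.59, 0.14 and 0.50 in set 1. Bnip3 was most like Zfp410, Obi1 and Fxr1 (0.83, 0.83 and 0.81), with 0.58, 0.26 and 0.59 in set 1. Hk2 was most like Gpx6, Kcnj10 and Ptprn2 (0.68, 0.67 and 0.66), with 0.28, -0.01 and 0.40 in set 1. These r are descriptions over arrays that share a set, and group differences are part of them.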

How the data were processed

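The authors deposited 1 table of log2 expression values per probe set for 53 Affymetrix rat arrays, and the submitters' processing notes name RMA and Partek 6.2. What each did, and the RMA version, is not given in the sources used here, so the array step from scans to values is unknown beyond these names. By its design RMA compresses differences near background, which understates changes of dim genes. From the deposited values, 31042 of 31099 probe sets were tested (57 controls left out), and the array annotation named the genes. One limma 3.58.1 fit (R 4.3.3) of 10 cell means over all 53 arrays, autologous and allogeneic serum split by set, gave 14 contrasts with Benjamini-Hochberg adjustment over all probe sets. Its SEs pool the spread of all groups and do not show where a single group varied more. Calls needed an adjusted p under 0.05. The sets were those of 53 of 53 arrays by Ward clustering. The fit was tested on simulated data whose noise was independent between arrays and between probe sets. Spread shared by replicate numbers or by a whole array was not part of that test. Named pathway genes were, per list and comparison, up to 4 called genes with the largest change. The 3 genes most like each member were ranked by r in set 2, leaving out unnamed loci. Members, lists and comparisons were chosen with earlier results of these data known. Replicate numbers were called paired where every pair's residuals correlated above 0.1, which held for d60 DRlyp/lyp with DR+/+ serum (lowest r 0.175), d40 IL-1RA with d40 PBS rats (0.401) and d40 IL-1RA rats with autologous serum (0.129). Alternatives covered normalization, filter, variance, weights, actin 3′ to 5′ difference, sets and single arrays. Figures used Python 3.11.15 and matplotlib 3.10.9. Promoter stretches are RefSeq's (GRCr8).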

Additional observations from a re-analysis of the deposited data

Results flagged for a closer look

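Among 96 combinations of a group and a member probe set, 4 held 1 array far from the rest of its group by Dixon's ratio, where chance marks about 1 in 20 groups. Ldha in replicate 1 of d40 PBS rats was 10.24, against 10.88 to 11.15 in the other 5 arrays. The main Pgk1 probe set in replicate 1 of d40 IL-1RA rats was 10.91, against 11.10 to 11.19 in the other 5. The second Pgk1 probe set in replicate 5 of that group was 9.39, against 8.79 to 8.98. Bnip3 in replicate 2 of d60 DRlyp/lyp serum with IL-1RA was 5.92, against 6.56 to 6.68 in the other 3. Arrays with replicate number 1 in set 1 also had the highest monocyte marker means.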

How the results depend on the processing

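Counts of called members moved as follows. For d60 DRlyp/lyp against allogeneic serum (4 in the report) they were 2 after a second quantile normalization, 2 with only the groups compared, 1 with the sets pooled and 1 at an adjusted p under 0.01, both times Ankrd37. For d60 DR+/+ against allogeneic serum (3 in the report) they were 1 when only the brighter probe sets, above the median of the means, were tested (Vegfa), 0 with only the groups compared, 1 with the sets pooled and 1 at an adjusted p under 0.01. For d60 DR+/+ against autologous serum (0 in the report) they were 2 after a second quantile normalization, 1 with the sets pooled, 1 with the set as a block, and 2 under a looser rule (adjusted p below 0.2 and a difference of 0.5 or more). Pooling the sets gave 1 for d60 DRlyp/lyp against autologous serum (Vegfa) and 2 for allogeneic against autologous serum in either set (Pgk1 and Adm), and the looser rule gave 2 there in set 2. Leaving out 1 array gave 1 to 5 members for DRlyp/lyp and 2 to 3 for DR+/+ against allogeneic serum, 0 to 1 for DR+/+ against autologous serum and 0 in the others. Calls over all probe sets moved as well, from 1530 to 9184 for DRlyp/lyp and from 3726 to 10532 for DR+/+ against allogeneic serum. The replicate number as a block gave 0 members in each comparison it could be fitted for and changed no call. For the other comparisons, those of d60 or IL-1B serum with BN serum, no paired analysis was possible because the d60 and IL-1B groups share no replicate number with autologous serum of set 2, and the d60 groups share 1 with allogeneic serum. No called member changed sign; signs of uncalled differences were not counted. Of the member values outside those fits, 1589 kept their side of the threshold, 18 gained and 25 lost it. Testing brighter probe sets alone leaves out Ankrd37 and Adm, whose means lie under the median, and fitting only the groups compared uses fewer arrays. For the other settings the cause was not tested. Dim probe sets (Adm, Hk2, the third Pgk1 probe set) leave little signal over background.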
